A study of Homo sapiens with 24 samples.

Results

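ERK signalling induces its own brakes. The 10 genes described here are 8 feedback inhibitors of the RAS and ERK cascade (DUSP4, DUSP5, DUSP6, SPRY2, SPRY4, SPRED1, SPRED2 and SPRED3) and the ETS factors ETV4 and ETV5. They were found in the deposited gene table by matching its Ensembl identifiers, with the version removed, to these symbols, and all 10 were found among 60668 rows. All 10 also passed the filter on low counts that left 22158 genes for testing. The genes were proposed with results of these same libraries in view, among them the low levels in MYC-ER cells before treatment and the rise after 8 h. The genes were thus selected on those values, which, with the interaction at 8 h built from them, are given as a description with no test.

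Poly(A) RNA was sequenced from 2 lines. MCF-10A is a non-tumorigenic breast epithelial line that grows without limit in culture, and MCF-10A MYC-ER also carries MYC, a transcription factor, joined to a hormone receptor domain. The fusion becomes active when 4-hydroxytamoxifen (4-OHT) binds that domain. Both lines grew on growth-factor-reduced Matrigel, which lets them form rounded 3-dimensional structures, and 1 µM 4-OHT was added from day 3 so that cells had 0, 8, 24 or 48 h of it when everything was collected on day 5. The 8 groups are thus parental MCF-10A at each of these times and MYC-ER at each of these times, with 3 libraries per group and 24 in all. The parental cells received the drug but carry no fusion, and no group with a fusion that cannot be activated was analysed here. The promoter that drives the fusion, and whether the MYC-ER line is 1 clone, are not given in the sources used here. The labels speak of triplicate wells, so p-values measure the spread between these wells.

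Libraries held between 136860029 and 182438505 counts. Levels are given as CPM, a count divided by its library's scaled total. The 3 counts that a value of 0 would still allow correspond to 0.0219 CPM in the smallest library by its plain, unscaled total, and all 10 genes had more than 3 counts in every library. Spearman correlations over genes were 0.983 to 0.992 between libraries of 1 group and 0.933 to 0.989 between groups. Basal markers of mammary epithelium were high in all libraries, with KRT5 at group means of 6922 to 13284 CPM and TP63 at 80.6 to 162 CPM. The 3 leukocyte markers summed to 2.67 to 8.33 CPM over the libraries and the 3 endothelial markers to 0.0582 to 2.25 CPM. In each of these lists 1 gene, CD3E and CDH5, had no counts in any library, and the others had some. MYC itself, which the assay cannot split into native and fusion transcripts, was at 387 ± 8.02 CPM in MYC-ER cells at 0 h and 795 ± 1.77 CPM at 8 h (SD, n = 3). In the same line MYC was lower later, at 321 ± 8.84 CPM at 24 h and 248 ± 4.72 CPM at 48 h. Parental group means of MYC were 463 to 532 CPM. Since 4-OHT acts on the fusion protein, MYC RNA is no check of the labels.

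The biology of these genes forms a loop around ERK. Growth factor receptors load RAS with GTP, RAS activates the RAF, MEK and ERK kinases in turn, and ERK enters the nucleus, where it releases repression and activates transcription factors. Dual-specificity phosphatases then remove phosphate from ERK itself, Sprouty proteins interfere with signalling between receptors and RAF, and SPRED proteins bring the RAS-inactivating protein neurofibromin to the membrane. ETV4 and ETV5 belong to the PEA3 group of ETS factors and carry ERK output on to further genes. In many cells the repressor Capicua (CIC) holds ETV4, ETV5 and Sprouty genes down until ERK relieves it, and DUSP6, SPRY4, ETV4 and ETV5 are widely used as transcript readouts of ERK activity. ERK activity itself was not measured.

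RefSeq promoter windows (GRCh38.p14, 250 bases before to 50 bases after a start) were matched for 6 of the 10 genes, in 10 windows. Windows were searched on both strands for the CIC octamers TGAATGAA, TGAATGGA, TCAATGAA and TCAATGGA, the ETS site CCGGAAGT, the AP-1 site TGANTCA and the E-box CACGTG that MYC binds. The sequences below show windows of the genes with large and with small changes. They are the bases around the CIC match of DUSP6 (chr12:89352507-89352536, minus strand, positions -35 to -6 from the start), and the 250 bases before the starts of SPRY4 (chr5:142324248-142324497, minus strand) and SPRY2 (chr13:80341127-80341376, minus strand). Capitals mark the match, and the SPRY4 and SPRY2 windows hold none of the motifs.
DUSP6: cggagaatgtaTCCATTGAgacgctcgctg
SPRY4: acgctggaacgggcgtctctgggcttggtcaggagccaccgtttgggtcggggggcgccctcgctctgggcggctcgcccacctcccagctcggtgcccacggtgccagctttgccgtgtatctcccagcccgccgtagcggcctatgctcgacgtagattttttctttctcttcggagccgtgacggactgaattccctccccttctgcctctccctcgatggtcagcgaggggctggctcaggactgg
SPRY2: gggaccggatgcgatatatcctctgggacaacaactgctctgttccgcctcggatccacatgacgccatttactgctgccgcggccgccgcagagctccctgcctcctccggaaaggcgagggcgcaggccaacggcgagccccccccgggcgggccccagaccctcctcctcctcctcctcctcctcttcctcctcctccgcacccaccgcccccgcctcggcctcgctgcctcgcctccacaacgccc

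DUSP6 held the CIC octamer TCAATGGA in reverse orientation 2 times, read as TCCATTGA on the gene's strand at positions -24 and 2. In the GENCODE v29 annotation the 250 bases before this start lie wholly in exon sequence of a longer DUSP6 transcript, and those of SPRED1 and of 1 SPRED3 window lie wholly in exons of their own genes. Of the bases printed for SPRY4, 170 of 250 lie in an exon of an annotated SPRY4 transcript. None of the printed SPRY2 bases lie in an annotated SPRY2 transcript. SPRED3 held a CIC octamer, TGAATGAA at position -192, and an AP-1 site at position -60 of 1 of its 2 windows. An intronic start of SPRED2 had AP-1 sites at positions -6 and 35. No window of SPRY2, SPRY4 or SPRED1 held any of the 4 motifs, and no window of any of the 6 genes held the ETS site or the E-box. Among all 35116 windows of this length, 3.77% held a CIC octamer, 4.14% the ETS site, 7.71% an AP-1 site and 7.26% the E-box. A match describes letters only, and a window without one says nothing about binding elsewhere.

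**Figure D1:**
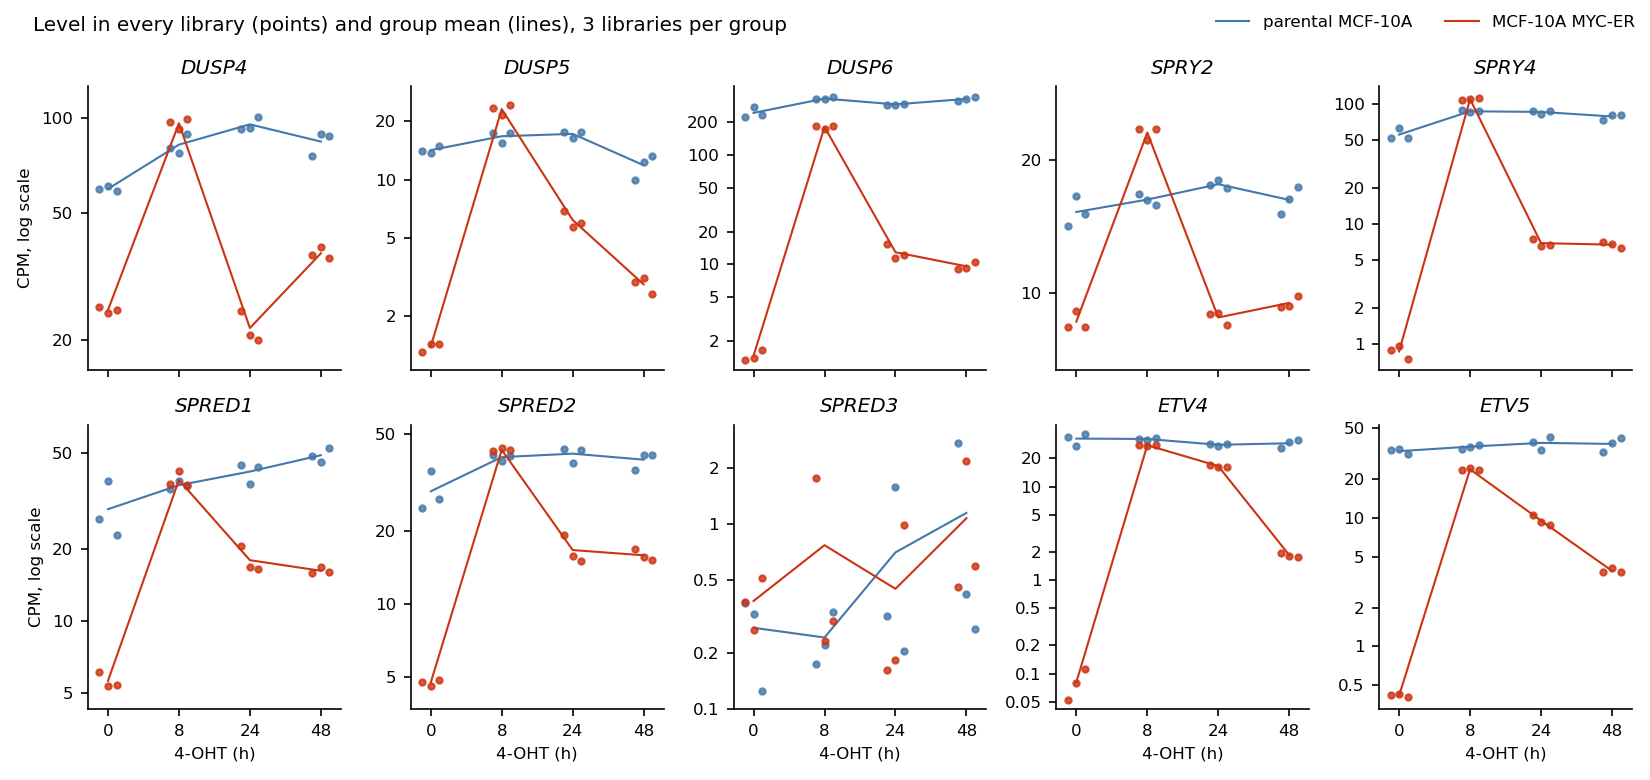
Level of each gene in CPM (vertical log axis, a separate scale for each gene) against hours of 4-OHT (horizontal axis), with 1 point per library and lines through the group means, for parental MCF-10A (blue) and MYC-ER (red). In 9 of the panels the MYC-ER line is lowest or near its lowest at 0 h, peaks at 8 h and comes down again, while the parental line stays high and comparatively flat. SPRED3 shows single high libraries and overlapping groups.

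Before 4-OHT, 9 of the 10 genes were lower in MYC-ER cells than in parental cells, in a contrast in which 32.7% of all tested genes were lower, and the libraries of both lines did not overlap for those 9. SPRED3 was the exception. How often the libraries of the groups compared fail to overlap over all tested genes was not counted, for this contrast or for those below. Because this difference was among the values that chose the genes, nothing is read from the count. The sizes ran from small for SPRY2 and DUSP4 to very large for ETV4 and DUSP6. In bulk RNA, fewer expressing cells and less RNA per cell cannot be told apart.

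The phosphatases come first in the loop's output. DUSP6, a cytoplasmic phosphatase that acts mainly on ERK, was at 225, 275 and 234 CPM in the parental libraries at 0 h and at 1.33, 1.37 and 1.66 CPM in the MYC-ER libraries. The parental mean was 168-fold higher on the fitted scale, a log2 difference of -7.39 ± 0.12 (SE) for MYC-ER minus parental. DUSP5, a nuclear phosphatase of ERK, was at 14.0, 13.6 and 14.9 CPM in parental cells and at 1.30, 1.43 and 1.42 CPM in MYC-ER cells (log2 difference -3.35 ± 0.11). DUSP4, a nuclear phosphatase that also acts on other MAP kinases, differed least of these phosphatases, at 59.5, 61.0 and 58.6 CPM against 25.3, 24.3 and 24.9 CPM.

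Among the inhibitors that act upstream, SPRY4 was at 52.8, 62.9 and 52.2 CPM in parental and 0.887, 0.964 and 0.753 CPM in MYC-ER libraries, a log2 difference of -6.01 ± 0.09. Its relative SPRY2, which also binds the ubiquitin ligase CBL, was at 14.2, 16.6 and 15.1 CPM against 8.38, 9.15 and 8.38 CPM, a much smaller log2 difference of -0.82 ± 0.06. SPRED1 was at 26.5, 38.5 and 22.7 CPM against 6.11, 5.35 and 5.39 CPM. SPRED2 was at 25.01, 35.3 and 27.2 CPM against 4.78, 4.63 and 4.89 CPM. In the parental group the second library was the highest for both SPRED genes, yet the lowest parental library stayed above every MYC-ER library.

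Of the 10 genes, the ETS factor ETV4 had the largest difference. It had 5561, 4723 and 6176 counts in the parental libraries at 0 h, or 34.1, 27.0 and 36.7 CPM, and only 9, 14 and 19 counts in the MYC-ER libraries, or 0.0522, 0.0794 and 0.111 CPM. The log2 difference was -8.64 ± 0.16, and 29 of the 22158 tested genes had a lower value in this contrast. ETV5 was at 33.7, 34.3 and 31.6 CPM in parental and 0.412, 0.420 and 0.403 CPM in MYC-ER libraries, a log2 difference of -6.33 ± 0.12.

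After 8 h of 4-OHT, 9 of the 10 genes were higher in MYC-ER cells than at 0 h, where 32.2% of tested genes were higher, again in the contrast that helped to choose them. The 3 libraries of each time did not overlap for any of the 9, with the share over all tested genes not counted. ETV4 reached 28.1, 27.0 and 28.0 CPM, a fitted 340-fold difference (log2 8.41 ± 0.16) and the 46th largest of the 22158 genes. SPRY4 reached 108, 110 and 114 CPM (127-fold), DUSP6 184, 176 and 186 CPM (125-fold), ETV5 23.7, 24.6 and 23.6 CPM (58.1-fold) and DUSP5 23.5, 21.4 and 24.3 CPM (16.6-fold). The other 4 rose by smaller folds, with SPRED2 at 43.2 ± 0.656 CPM (9.06-fold), SPRED1 at 38.8 ± 2.96 CPM (6.90-fold), DUSP4 at 96.1 ± 3.31 CPM (3.87-fold) and SPRY2 at 23.1 ± 0.715 CPM (2.67-fold; SD, n = 3).

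The MYC-ER 0 h libraries stood apart from all other libraries in mitochondrial share and in the summed mesenchymal and luminal markers. In the basal, leukocyte and endothelial sums they did not. Mitochondrially encoded genes took 9.24% to 9.71% of the counts in MYC-ER libraries at 0 h and 3.86% to 7.78% in the other 21 libraries. The summed level of the 5 mesenchymal markers was 208 to 222 CPM in MYC-ER at 0 h against 50.9 to 54.3 CPM at 8 h, and 83.6 to 102 CPM in parental cells at 0 h. Of these 5, COL1A1 carried nearly all of it and COL1A2, COL3A1 and PDGFRA did not pass the filter. The 7 luminal markers summed to 350.3 to 362 CPM in MYC-ER at 0 h and 759 to 800 CPM at 8 h, with PGR at 0 counts throughout. The 5 basal markers overlapped between these times, at 13726 to 14011 and 13135 to 14279 CPM, and were 22464 to 27158 CPM in parental cells at 0 h. The 3 leukocyte markers summed to 3.56 to 3.78 CPM at 0 h and 2.67 to 2.78 CPM at 8 h in MYC-ER cells, and the 3 endothelial markers to 0.0582 to 0.244 CPM and 0.751 to 1.11 CPM. The part of these shifts in the results was not tested.

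At 8 h the lines were closer together than at 0 h. This contrast holds no 0 h library, but its MYC-ER libraries helped to choose the genes, so its p-values are not independent of that choice. Relative to parental cells at 8 h, 4 genes were higher in MYC-ER (DUSP4, DUSP5, SPRY2 and SPRY4, where 23.1% of tested genes were higher) and 2 were lower (DUSP6 and ETV5, where 25.5% were lower). SPRY2 was higher by 0.50 ± 0.06 (log2; edgeR quasi-likelihood test, Benjamini-Hochberg adjusted p = 1.08e-06), DUSP5 by 0.46 ± 0.10 (adjusted p = 0.000355), SPRY4 by 0.34 ± 0.07 (adjusted p = 0.000441) and DUSP4 by 0.22 ± 0.07 (adjusted p = 0.0125). The DUSP4 call was lost without the second parental 8 h library, at 0.18 (adjusted p = 0.0690), and under scaling by library size alone, at 0.14 (adjusted p = 0.0711).

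DUSP6 was lowest relative to parental cells at this time. Its log2 difference was -0.86 ± 0.09 (adjusted p = 4.58e-08), with MYC-ER libraries at 184, 176 and 186 CPM and parental libraries at 327, 325 and 341 CPM. ETV5 was at -0.59 ± 0.09 (adjusted p = 5.98e-06), with 23.7, 24.6 and 23.6 CPM against 34.7, 36.0 and 37.4 CPM. For ETV4 the difference was -0.22 ± 0.09 (adjusted p = 0.0596), for SPRED1 0.07 ± 0.13 (adjusted p = 0.687) and for SPRED2 0.10 ± 0.10 (adjusted p = 0.444), none past the threshold of 0.05. ETV4 was called lower under scaling by library size alone, at -0.30 (adjusted p = 0.00435). When only the groups compared were fitted, ETV4 was called lower, at -0.22 (adjusted p = 0.000665), and SPRED2 higher, at 0.10 (adjusted p = 0.0369).

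**Figure D2:**
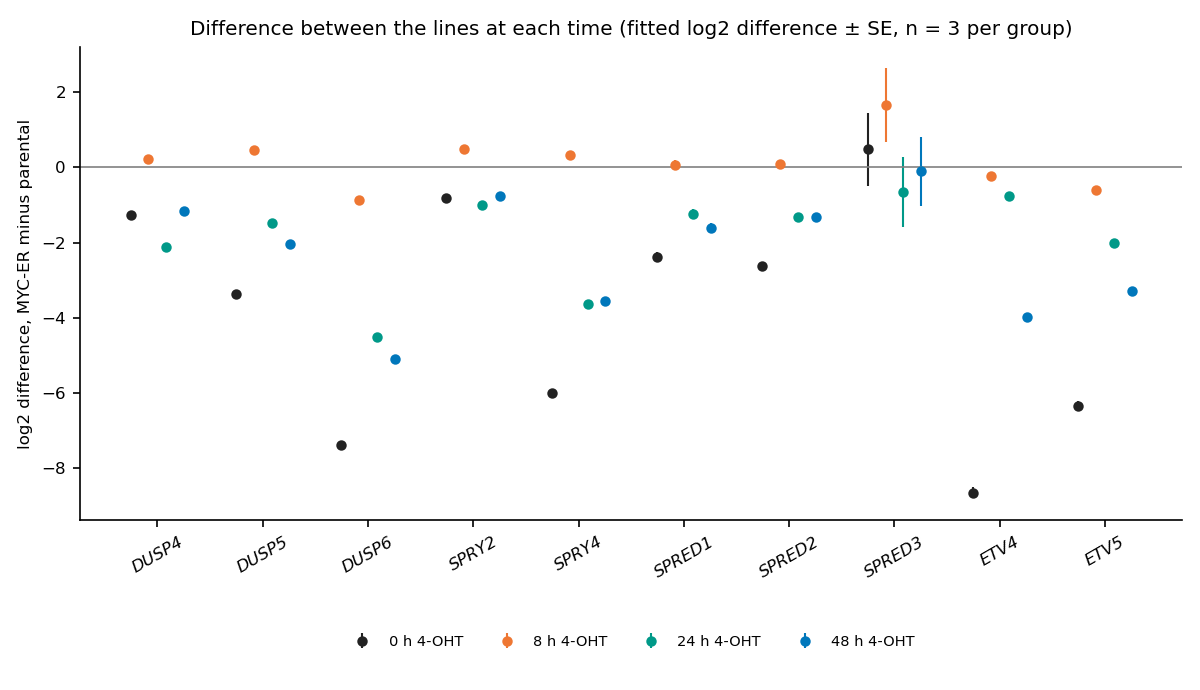
Fitted log2 difference between MYC-ER and parental cells (vertical axis, 0 means equal) for each gene at 0, 8, 24 and 48 h of 4-OHT, with bars for the standard error, 3 libraries per group. The 8 h points of 9 genes lie between -0.86 and 0.50, and their points at the other times lie below 0. SPRED3 has standard errors near 1 and no called difference.

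The peak did not last. Between 8 and 24 h, 9 of the 10 genes fell in MYC-ER cells, where 27.1% of tested genes fell, and none rose, where 28.4% did. This contrast shares the 8 h libraries with the one that helped to choose the genes, so its p-values are not independent of that choice. SPRY4 came down from 108, 110 and 114 CPM to 7.56, 6.63 and 6.67 CPM (log2 change -3.99 ± 0.08, adjusted p = 6.43e-20), and DUSP6 from 184, 176 and 186 CPM to 15.2, 11.4 and 12.1 CPM (-3.82 ± 0.10, adjusted p = 3.45e-18). No library of either gene at 24 h came near its 8 h values.

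DUSP4 came down to 24.6, 20.7 and 20.04 CPM, overlapping its 0 h libraries (-2.14 ± 0.07 from 8 h, adjusted p = 4.87e-16). SPRY2 also overlapped its 0 h libraries, at 8.98, 9.02 and 8.47 CPM (-1.39 ± 0.07, adjusted p = 8.01e-14). DUSP5 fell by 1.89 ± 0.10 on the log2 scale (adjusted p = 4.5e-13), SPRED2 by 1.37 ± 0.10 (adjusted p = 1.83e-10), ETV5 by 1.33 ± 0.09 (adjusted p = 2.15e-11) and SPRED1 by 1.11 ± 0.13 (adjusted p = 2.85e-07). Of these 9 genes ETV4 fell least, from 28.1, 27.0 and 28.0 CPM to 17.1, 16.3 and 16.4 CPM (-0.74 ± 0.10, adjusted p = 8.4e-07). The libraries of 8 and 24 h did not overlap for any of these 9 genes, with the share over all tested genes not counted.

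From 24 to 48 h the genes parted. ETV4, ETV5, DUSP5 and DUSP6 fell further, where 25.5% of tested genes fell, and DUSP4 rose, where 28.2% rose. ETV4 dropped to 1.97, 1.80 and 1.79 CPM, a log2 change of -3.16 ± 0.11 (adjusted p = 6.87e-16) and much more than in the step before. ETV5 went from 10.5, 9.38 and 8.75 CPM to 3.79, 4.05 and 3.76 CPM (-1.30 ± 0.09, adjusted p = 5.91e-11). DUSP5 changed by -1.10 ± 0.10 (adjusted p = 4.52e-09) and DUSP6 by -0.43 ± 0.09 (adjusted p = 0.000483).

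DUSP4 moved the other way, to 36.9, 39.3 and 36.2 CPM at 48 h, a log2 change of 0.78 ± 0.07 (adjusted p = 6.38e-09) with no overlap. No Sprouty or SPRED gene passed the threshold in this step. Their changes from 24 to 48 h were 0.11 ± 0.06 for SPRY2 (adjusted p = 0.167), -0.04 ± 0.08 for SPRY4 (adjusted p = 0.656), -0.15 ± 0.13 for SPRED1 (adjusted p = 0.37) and -0.07 ± 0.10 for SPRED2 (adjusted p = 0.578).

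Against 0 h, 7 genes were still higher at 24 h in MYC-ER cells (30.4% of tested genes were) and 1, DUSP4, was lower (31.2% were). At 48 h 8 genes were higher, against 23.4% of tested genes. Both contrasts use the 0 h libraries that helped to choose the genes, so their counts and p-values are not independent of that choice. ETV4 stood at log2 7.67 ± 0.16 above 0 h at 24 h and 4.51 ± 0.17 at 48 h, ETV5 at 4.53 ± 0.11 and 3.23 ± 0.11, DUSP6 at 3.15 ± 0.11 and 2.72 ± 0.11, and SPRY4 at 3.00 ± 0.09 and 2.96 ± 0.09. SPRY2 was within 0.14 of its 0 h level on the log2 scale at both times (adjusted p = 0.703 and 0.0872). At 48 h its libraries did not overlap those of 0 h. It was called higher at 48 h under library size alone, at 0.30 (adjusted p = 0.000684). The same held with at least 10 counts in every library, at 0.17 (adjusted p = 0.0387). DUSP4 at 24 h was lower by -0.19 ± 0.07 (adjusted p = 0.0287) with overlapping libraries. That call was lost without the first or the third 0 h library, or without the second or the third 24 h library, where the change was -0.13 to -0.19. It was also lost under library size alone, at -0.07 (adjusted p = 0.336), with GC and length trends removed, at -0.10 (adjusted p = 0.208), when only the groups compared were fitted, at -0.15 (adjusted p = 0.0858), and under DESeq2 size factors and the DESeq2 Wald test, both at -0.16 (adjusted p = 0.0640 and 0.0602). Without the first 24 h library it was -0.28.

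At 24 and 48 h, 9 of the 10 genes were again below parental cells in the MYC-ER line, where 25.8% and 29.4% of tested genes were. These contrasts hold no library of 0 or 8 h. The genes were nevertheless proposed with results of this series in view, so independence of these counts and p-values from that choice cannot be claimed. DUSP6 was 22.7-fold lower at 24 h and 34.2-fold lower at 48 h, with MYC-ER libraries at 9.04 to 15.2 CPM and parental libraries at 290 to 345 CPM (log2 -4.50 ± 0.10, adjusted p = 2.48e-18, and -5.10 ± 0.11, adjusted p = 4.86e-19). SPRY4 was lower by 3.64 ± 0.08 and 3.55 ± 0.08 on the log2 scale, at 6.34 to 7.56 CPM against 74.1 to 88.1 CPM (fitted -3.64 and -3.55, adjusted p = 2.22e-18 and 1.35e-18). The ETS factors were nearer to parental cells at 24 h than at 48 h. ETV4 was at -0.76 ± 0.10 and then -3.97 ± 0.11 (adjusted p = 8.26e-07 and 2.98e-17), and ETV5 at -2.02 ± 0.09 and then -3.29 ± 0.09 (adjusted p = 5.3e-14 and 5.3e-17).

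The inhibitors DUSP4, DUSP5, SPRY2, SPRED1 and SPRED2 were also lower at both times. DUSP4 was at -2.13 ± 0.07 and -1.17 ± 0.07 at 24 and 48 h (adjusted p = 1.38e-15 and 1.03e-11), DUSP5 at -1.47 ± 0.10 and -2.04 ± 0.10 (adjusted p = 4.56e-11 and 3.13e-13) and SPRY2 at -0.999 ± 0.07 and -0.77 ± 0.06 (adjusted p = 3.09e-11 and 1.33e-09). SPRED1 was at -1.23 ± 0.13 and -1.60 ± 0.13 (adjusted p = 9.03e-08 and 1.31e-09), and SPRED2 at -1.32 ± 0.10 and -1.31 ± 0.10 (adjusted p = 5.31e-10 and 4.58e-10). For all 9 genes the libraries of the lines did not overlap at either time, but how often this holds over all tested genes was not counted.

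Parental cells, which lack the fusion, were compared with their own 0 h group in the same way. These parental 0 h libraries also entered the 0 h difference between the lines that helped to choose the genes. The parental counts and p-values are thus not independent of that choice. At 8 h DUSP4, DUSP6, SPRY4 and SPRED2 rose (4 of 10, where 15% of tested genes rose). At 24 h 8 genes rose, all but SPRED3 and ETV4, where 21.2% did, and none fell, where 21.7% did. At 48 h DUSP4, DUSP6, SPRY4, SPRED1 and SPRED2 rose, where 20.4% did, and DUSP5 fell, where 20.1% did. The largest called change was 0.75 ± 0.13 on the log2 scale, for SPRED1 at 48 h (adjusted p = 0.000134), from 26.5, 38.5 and 22.7 CPM to 48.9, 45.9 and 52.8 CPM. That change was 1.00 without the second parental 0 h library, 0.45 with the GC trend removed and 0.23 with GC and length trends removed, each still past the threshold.

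SPRY4 rose from 52.8, 62.9 and 52.2 CPM at 0 h to 89.5, 85.8 and 87.3 CPM at 8 h, a log2 change of 0.65 ± 0.07 (adjusted p = 1.71e-06) with no overlap. It stayed up at 24 h (0.63 ± 0.07, adjusted p = 1.51e-06) and 48 h (0.50 ± 0.07, adjusted p = 2.31e-05). DUSP4 went from 58.6 to 61.0 CPM at 0 h to 77.6 to 88.8 CPM at 8 h (0.46 ± 0.07, adjusted p = 7.17e-05), 92.2 to 101 CPM at 24 h (0.67 ± 0.07, adjusted p = 7.04e-07) and 75.6 to 89.0 CPM at 48 h (0.49 ± 0.07, adjusted p = 2.68e-05). DUSP6 changed by 0.44 ± 0.09, 0.26 ± 0.09 and 0.43 ± 0.09 at the 3 times (adjusted p = 0.000859, 0.0212 and 0.000574), and SPRED2 by 0.47 ± 0.10, 0.51 ± 0.10 and 0.43 ± 0.10 (adjusted p = 0.00146, 0.000301 and 0.00155).

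ETV4 and ETV5 passed the threshold in 1 of 6 parental contrasts. ETV4 was at 32.6 ± 5.05, 32.3 ± 0.744, 28.0 ± 0.698 and 29.1 ± 2.96 CPM at 0, 8, 24 and 48 h (SD, n = 3) and passed the threshold at no time (adjusted p = 0.939, 0.0664 and 0.176). ETV5 was at 33.2 ± 1.43, 36.0 ± 1.34, 38.5 ± 4.42 and 37.8 ± 4.96 CPM and passed at 24 h only, at 0.21 ± 0.08 (adjusted p = 0.0469), with overlapping libraries.

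Over all genes, parental changes varied with base composition and transcript length. Across 9784 well-expressed genes the Spearman rho between a gene's GC content and its parental change was -0.62, -0.66 and -0.65 at 8, 24 and 48 h, where it was 0.02, -0.06 and 0.03 for the MYC-ER changes. With transcript length rho was 0.39, 0.55 and 0.60 for the parental changes and -0.11, -0.13 and -0.10 for the MYC-ER changes. The genes differ in GC content, from 38.9% in SPRED1, which also has the longest transcript at 7780 bases, to 60.8% in ETV4. With each library's GC trend removed, a setting chosen after seeing the data, DUSP6, SPRED1 and ETV5 were no longer called at 24 h (0.22, 0.24 and 0.23, adjusted p = 0.0537, 0.0604 and 0.0629) and DUSP5 not at 48 h (-0.09, adjusted p = 0.555). DUSP5 and ETV4 were then called at 8 h (0.38 and 0.23, adjusted p = 0.00649 and 0.0253), the latter with its sign turned from -0.01. With the length trend removed as well, SPRED1 at 24 h came to 0.01 (adjusted p = 0.969), DUSP6 to 0.14 (adjusted p = 0.188) and DUSP5 at 48 h to -0.01 (adjusted p = 0.94), and the DUSP5 rise at 24 h grew from 0.28 to 0.54.

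The parental count at 24 h varied most with the settings tried, of the 15 counts of called genes. It was 5 in place of 8 with the GC trend removed and 3 when only the groups compared were fitted, where 35.2% and 25.1% of all tested genes were called in place of 42.9%. It was 4 without the first parental 0 h library and 5 without the third parental 24 h library. DUSP5, DUSP6, SPRY2 and ETV5 were the 4 lost without the first 0 h library, at log2 changes of 0.27, 0.20, 0.16 and 0.23. Leaving out the third parental 24 h library also lost DUSP5, DUSP6 and ETV5 (0.26, 0.25 and 0.13), the first 24 h library DUSP5 and ETV5 (0.27 and 0.21), the third 0 h library DUSP6 and ETV5 (0.25 and 0.20) and the second 0 h library DUSP5 (0.25). Without the second parental 0 h library, ETV4 was called lower at 24 and 48 h, at -0.34 and -0.29, and SPRED1 higher at 8 h, at 0.58 (adjusted p = 0.00103, 0.00456 and 6.71e-05). The fall of DUSP5 at 48 h was lost without the first or the third 0 h library or the first 48 h library, at -0.27, -0.19 and -0.15. Without the first parental 48 h library ETV5 was called higher at 48 h, at 0.28 (adjusted p = 0.00945).

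**Figure D3:**
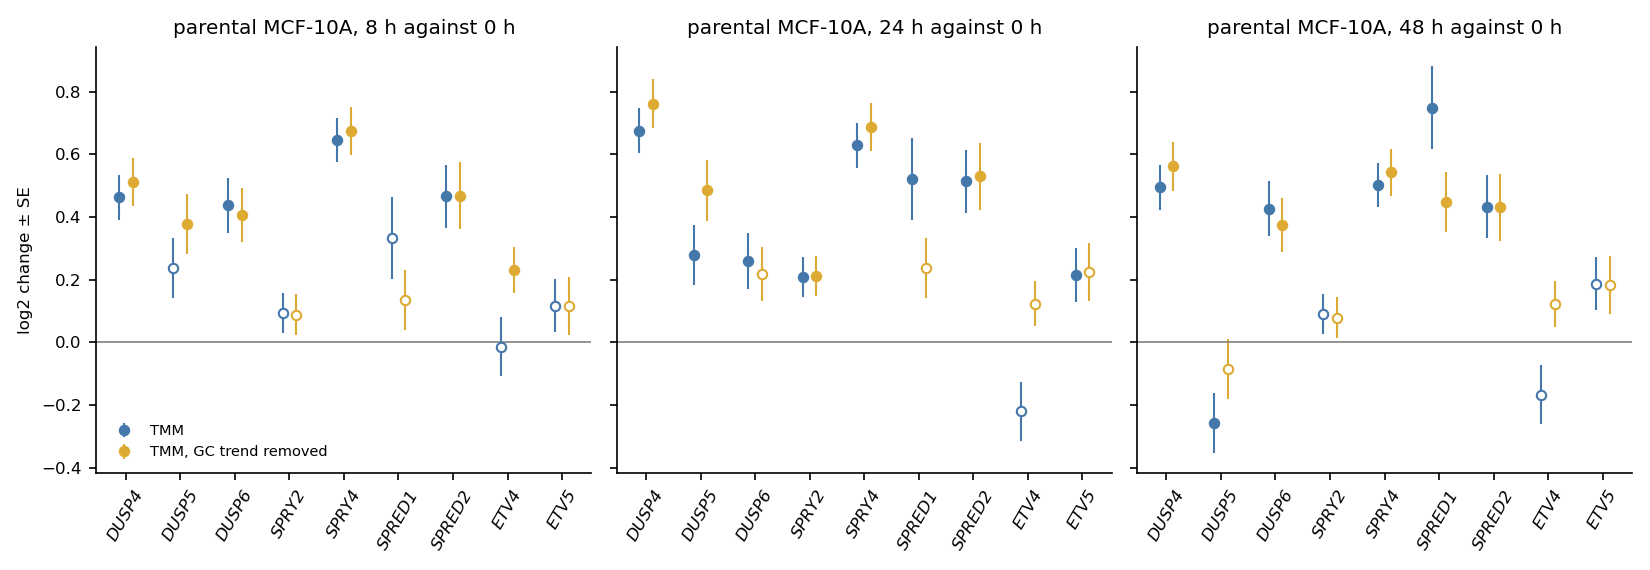
Log2 change ± SE in parental cells at 8, 24 and 48 h against 0 h (vertical axis) for 9 genes, by the TMM fit (blue) and with each library's GC trend removed (yellow), 3 libraries per group. Filled points passed the threshold of 0.05 and open points did not. All called TMM changes lie between -0.26 and 0.75, ETV4 lies at or below 0 by TMM and above 0 with the GC trend removed, and SPRED3 is left out because its errors are near 1.

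The interaction compares the change since 0 h in MYC-ER cells with that in parental cells, by subtracting the second from the first. It was above 0 and past the threshold for 9 of 10 genes at 8 h (27.3% of tested genes were), 7 at 24 h (27.7%) and 7 at 48 h (23.6%). Below 0 and past the threshold was DUSP4 alone at 24 h (26.8% of tested genes were), and none of the 10 genes at 8 h (27.8%) or 48 h (21.4%). All of these use the MYC-ER 0 h libraries, so counts and p-values are not independent of the choice of the genes. For ETV4 it was 8.42 ± 0.19, 7.89 ± 0.19 and 4.67 ± 0.20 at 8, 24 and 48 h, and for DUSP6 6.53 ± 0.14, 2.89 ± 0.14 and 2.30 ± 0.14. DUSP4 went from 1.49 ± 0.10 to -0.86 ± 0.10 and 0.10 ± 0.10. SPRY2 was at 1.32 ± 0.09, -0.18 ± 0.09 and 0.05 ± 0.09, the last 2 not past the threshold (adjusted p = 0.108 and 0.708). SPRED1 was at 0.78 ± 0.19 at 48 h, and at 1.36 with GC and length trends removed. Without the second parental 0 h library the 24 h value of SPRY2 was -0.24 (adjusted p = 0.0217).

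The groups can be ordered by level for each gene. ETV5, DUSP6 and ETV4 had all 4 parental groups above all 4 MYC-ER groups by mean, although ETV4 in MYC-ER at 8 h overlapped the parental libraries of 0, 24 and 48 h. DUSP5, SPRY2 and SPRY4 were highest in MYC-ER at 8 h, with no overlap with the next group, which was parental at 24 h for DUSP5 and SPRY2 and parental at 8 h for SPRY4. DUSP4 and SPRED2 also had their highest mean in MYC-ER at 8 h, overlapping parental cells at 24 h, and SPRED1 was highest in parental cells at 48 h. At the low end, MYC-ER at 0 h was last for 7 genes with no overlap with the group above it, and for SPRY2 and DUSP4 it overlapped MYC-ER at 24 h. The highest group mean exceeded the lowest 403-fold for ETV4, 228-fold for DUSP6, 127-fold for SPRY4, 93.7-fold for ETV5 and 2.67-fold for SPRY2.

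SPRED3 is the third member of the SPRED family. It was low in every library, between 0.125 and 2.76 CPM (21 to 503 counts), and no contrast passed the threshold. Single libraries were high in 5 groups. These were the third MYC-ER 24 h library at 0.993 CPM beside 0.163 and 0.183 CPM, the first MYC-ER 8 h library at 1.77 CPM where the other two had 0.234 and 0.3002 CPM, the second MYC-ER 48 h library at 2.18 CPM beside 0.456 and 0.590 CPM, the second parental 24 h library at 1.58 CPM beside 0.319 and 0.206 CPM, and the first parental 48 h library at 2.76 CPM beside 0.420 and 0.270 CPM. All group ranges overlapped with their neighbours, and the MYC-ER change at 8 h was 1.00 ± 0.95 on the log2 scale.

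Across the 24 libraries, which share lines, times and depth, the log2 CPM of the other 9 genes ran together, with Pearson r from 0.67 for DUSP4 with ETV4 to 0.99 for SPRED1 with SPRED2. SPRY4 had r = 0.98 with DUSP6, and ETV4 had r = 0.98 with ETV5. SPRED3 had r between -0.13 and 0.03 with each of them. These values describe 24 libraries of 8 groups and carry no test.

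Outside these 10 genes, the most similar profiles over the 24 libraries came from several kinds of gene. For ETV5 they were EGR1, an immediate early transcription factor (r = 0.995), and SLC2A9, a urate transporter (r = 0.99). For DUSP6 they were FGFBP1, a secreted carrier of fibroblast growth factors, and the ephrin receptor EPHA2 (both r = 0.99). TRIB1 and SMTN were nearest to SPRY4 (both r = 0.99), the scaffold BCAR3 and the insulin receptor substrate IRS1 to DUSP4 (r = 0.99 and 0.98), and LAD1 and SH2D2A to DUSP5 (both r = 0.99). STAMBPL1 and LRP8 were nearest to ETV4 (both r = 0.99), ARHGEF2 and TSC22D1 to SPRY2 (both r = 0.98), the sterol enzyme CYP51A1 and SLC2A9 to SPRED1 (both r = 0.97) and SLC2A9 and BHLHE40 to SPRED2 (both r = 0.98). For SPRED3 the nearest were PPAN-P2RY11 and THUMPD3-AS1, at only r = 0.57 and 0.56.

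The lists of related genes below were, like the 10 genes, chosen with earlier results of these data known, so their counts are descriptions. The first holds other genes known to follow ERK activity. Of 8 listed (CCND1, EGR1, EPHA2, EPHA4, FOSL1, IER3, PHLDA1 and TRIB1), 7 rose and 1 fell at 8 h in MYC-ER cells, where 32.2% of tested genes rose and 35.4% fell, with a median log2 change of 3.67, beside 3.62 for the 10 genes and -0.10 for all tested genes. IER3, an early response gene, rose most, from 5.37 to 140 CPM (4.70 ± 0.12). From 8 to 24 h 7 of the 8 fell, where 27.1% of tested genes did, with a median of -2.17 beside 0.05 for all tested genes. PHLDA1 fell most, from 120.2 to 13.5 CPM (-3.15 ± 0.07). Relative to parental cells 7 of 8 were lower at 24 h (median -2.22) and 8 of 8 at 48 h (median -1.94), where 25.8% and 29.4% of tested genes were. At 8 h 2 were higher and 3 lower (median -0.07), where 23.1% and 25.5% of tested genes were. In parental cells 5 of 8 rose at 8 h (median 0.33), where 15% of tested genes did, and IER3 again rose most (0.79 ± 0.10).

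The next list is the cascade that feeds these genes. Of 25 genes for adaptors, RAS proteins, kinases and cascade regulators, 10 rose and 8 fell at 8 h in MYC-ER cells (median 0.15), shares near those of all tested genes (32.2% and 35.4%). The MEK gene MAP2K1 rose most, from 60.6 to 226 CPM (1.90 ± 0.07), and the RAS exchange factor SOS2 fell most, from 60.7 to 23.7 CPM (-1.36 ± 0.09). From 8 to 24 h 3 rose and 12 fell (median -0.22), where 28.4% and 27.1% of tested genes did, with MAP2K1 again moving most (-1.19 ± 0.07). Relative to parental cells at 24 h 1 was higher and 16 were lower (median -0.28), where 23.5% and 25.8% of tested genes were.

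Among 9 other MAP kinase phosphatases and Sprouty genes, 5 rose and 4 fell at 8 h in MYC-ER cells (median 0.23), where 32.2% and 35.4% of tested genes did. DUSP2, an inducible nuclear phosphatase, rose from 1.68 to 18.0 CPM (3.42 ± 0.10), and DUSP10, which acts mainly on JNK and p38, fell from 15.1 to 6.40 CPM (-1.24 ± 0.10). From 8 to 24 h 3 rose and 4 fell, where 28.4% and 27.1% of tested genes did, with DUSP7 falling from 362 to 104 CPM (-1.80 ± 0.05) and DUSP9 rising from 5.42 to 16.6 CPM (1.61 ± 0.13).

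Among 12 other ETS factors and the CIC complex, 6 rose and 4 fell at 8 h in MYC-ER cells (median 0.20), where 32.2% and 35.4% of tested genes did. ETS1 rose from 16.9 to 64.3 CPM (1.93 ± 0.11) and ETS2 fell from 235 to 68.9 CPM (-1.77 ± 0.05). In parental cells at 8 h 6 of the 12 rose and 3 fell (median 0.20), where 15% and 16% of tested genes did. ETS1 was at 1.12 ± 0.11 there and CIC, the repressor of ETV4 and ETV5, at -0.49 ± 0.06. Parental changes of the listed genes were not computed with the GC trend removed.

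**Figure D4:**
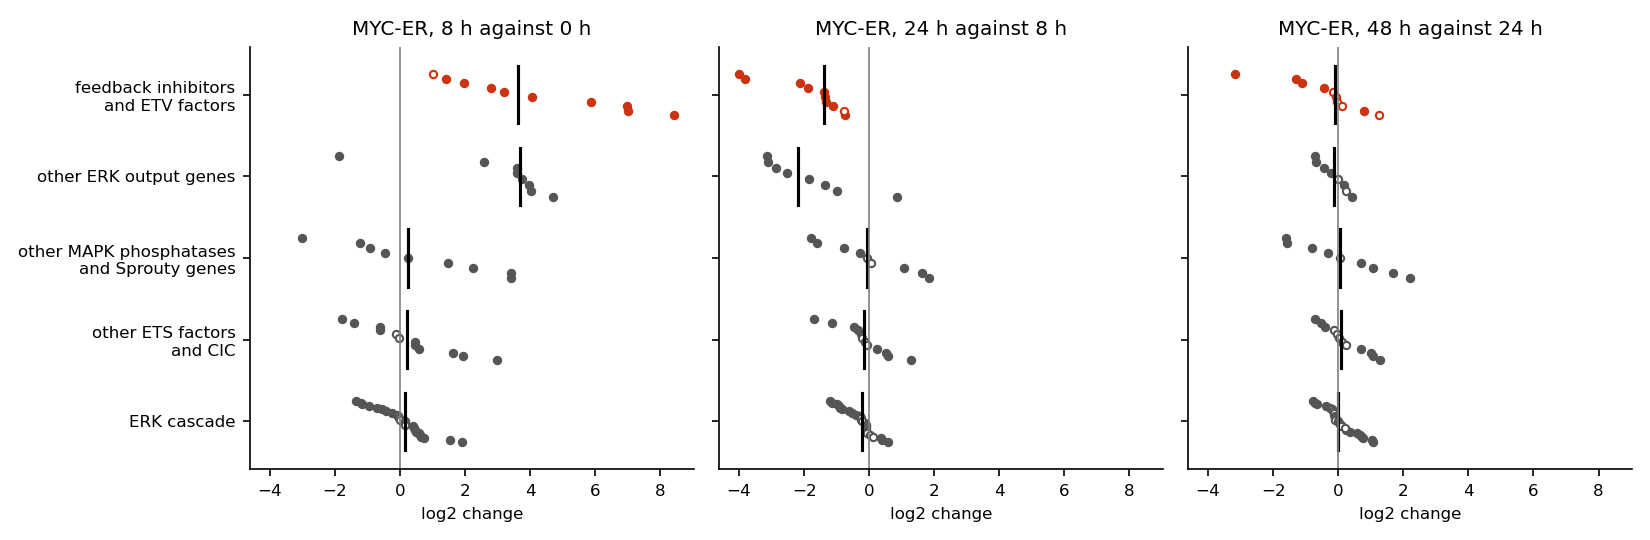
Log2 change of each gene (points, horizontal axis) in MYC-ER cells at 8 h against 0 h, 24 h against 8 h and 48 h against 24 h, for the 10 genes (red) and 4 lists of related genes (grey). Filled points passed the threshold, open points did not, and vertical bars are list medians. The 10 genes and the other ERK output genes have medians of 3.62 and 3.67 in the first step and -1.38 and -2.17 in the second, where the other lists have medians between -0.22 and 0.23.

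Some of these genes overlap others in the annotation (GENCODE v29, GRCh38). ETV4 (chr17:43527844-43579620, minus strand) overlaps DHX8 on the other strand, DUSP6 (chr12:89347232-89353271, minus strand) and SPRY4 (chr5:142310427-142326455, minus strand) overlap antisense transcripts, and ETV5 (chr3:186046308-186110318, minus strand) overlaps its antisense RNA and, on its own strand, DGKG. The libraries were stranded, but whether the counting used strand is not given in the sources used here, so reads of such partners may be mixed.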

How the data were processed

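The authors deposited 1 table of raw counts, whole numbers for each gene in each of the 24 libraries. The submitters' processing notes name Trimmomatic 0.39, STAR, StringTie 2.1.3b and GRCh38 without saying what each did, so a count may be an estimate from coverage. The annotation release and the use of strand are not given in the sources used here. Of the 60668 rows, 60295 matched a symbol.

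Genes kept by filterByExpr (22158) entered a quasi-likelihood fit of edgeR 4.0.16 (R 4.3.3, limma 3.58.1) after TMM scaling, with a mean for each group and all libraries in 1 model. The common biological coefficient of variation was 0.151. Contrasts were tested two-sided with its F test, adjusted by Benjamini-Hochberg over all tested genes, with a threshold of 0.05. Counts and shares of genes that rose, fell, or were higher or lower are of genes past this threshold. Standard errors were derived from the F statistic. CPM were computed on totals multiplied by the TMM factors, and correlations use log2 CPM with a prior count of 2. The procedure was tested on simulated data. Limits on counts cover counting error only, since reads carry no molecular identifiers.

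The members and lists were chosen with earlier results of these data known. Beside the 10 genes and MYC, the text names from each list the gene with the largest rise and fall among called genes with at least 10 CPM in their highest group, and for each of the 10 genes the 2 others with a symbol, that level and the highest Pearson r. Cell type markers named singly were chosen after their values were seen. Alternatives were DESeq2 1.42.0 size factors and Wald test, library size alone, no filter, at least 10 counts in every library, a fit restricted to the groups of each contrast, a replicate block and leaving out each library. Removal of lowess trends (span 0.3), either for GC or for both GC and transcript length, was chosen after seeing the data.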

Additional observations from a re-analysis of the deposited data

Results flagged for a closer look

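The interaction term of the edgeR fit is above 0 where the change since 0 h is larger in MYC-ER than in parental cells. It was above 0 and past the threshold for 9 of the 10 genes after 8 h of 4-OHT, where 27.3% of all tested genes were. The same held for 7 genes after 24 h (27.7%) and for 7 after 48 h (23.6%). It was below 0 and past the threshold for 1 gene at 24 h, where 26.8% of tested genes were. All these values use the MYC-ER 0 h libraries that helped to choose the genes, and those at 8 h are a description with no test. At 8 h the log2 difference between the changes was 8.42 for ETV4, 6.53 for DUSP6, 6.34 for SPRY4, 5.74 for ETV5, 3.82 for DUSP5, 2.71 for SPRED2, 2.45 for SPRED1, 1.49 for DUSP4 and 1.32 for SPRY2. At 24 h it was 7.89 for ETV4, 4.32 for ETV5, 2.89 for DUSP6, 2.37 for SPRY4, 1.88 for DUSP5, 1.30 for SPRED2, 1.15 for SPRED1 and -0.86 for DUSP4. At 48 h it was 4.67 for ETV4, 3.04 for ETV5, 2.45 for SPRY4, 2.30 for DUSP6, 1.32 for DUSP5, 1.31 for SPRED2 and 0.78 for SPRED1.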

How the results depend on the processing

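The 10 genes in 15 contrasts gave 150 log2 changes, of which 114 passed the threshold, and 104 of those passed under all alternatives run for them. Of 2415 alternative values, 2344 kept the side of the threshold and, where called, the direction. Of the rest, 46 lost the call, 21 gained one and 4 reversed. The 4 reversals were ETV4 in parental cells, at 0.23 (8 h) with the GC trend removed and at 0.26, 0.19 and 0.20 (8, 24 and 48 h) with GC and length trends removed. Among the 2344, 33 values changed sign where neither value was called. The count of genes called at 24 h in parental cells, 8 as reported, was 3 when only the groups compared were fitted, 5 with the GC trend removed and 4 to 8 when 1 library was left out. All other counts of called genes stayed within 1.5 times under the alternatives run. Scaling by library size alone moved the median change of all tested genes from 0.05 to 0.26 between 8 and 24 h in MYC-ER cells, its largest shift. Samples with the same replicate number did not deviate together (correlations of -0.03 to 0.05), and with the replicate number as a block 1 call was lost, ETV5 in parental cells at 24 h, at 0.21 (adjusted p = 0.0604), which made that count 7. Not every sample correlated best with its own number. The causes of these changes were not tested. SPRED3 had 21 to 503 counts over the libraries, and ETV4 had 9 to 19 in MYC-ER cells at 0 h.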
